A study of Mus musculus with 198 samples.

Results

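The genes described are those that encode the numbered proteins of the cytosolic ribosome (symbols Rpl and Rps, for the large and small subunit) and of the mitochondrial ribosome (Mrpl and Mrps). They were chosen by name alone: a prefix followed by a number and at most 1 lower-case letter, which leaves out the S6 kinases of the Rps6k family. Of 34193 gene rows in the deposited table, 152 bore such a name, and 109 of these had values in all 8 deeply sequenced cortex libraries: 28 Rpl, 17 Rps, 38 Mrpl and 26 Mrps genes. The same held for 21056 gene rows in all. The samples were cortices of 4 mice heterozygous for a knockout of Dnmt3a, which encodes a DNA methyltransferase (hKO), and of 4 wild-type (WT) mice, each group with 2 males and 2 females. All 8 mice were C57BL/6J animals aged 8 weeks, and per the labels the tissue was dissected from littermates. Whole cortex was taken, so each value is an average over neurons and glia. Whole-genome bisulfite sequencing, at a labelled coverage of 6.4 to 7.8, gave for each gene the share of CA cytosines (mCA) and of CG cytosines (mCG) that were called methylated, here in percent. Animals are named by the numbers in the labels: 694, 046-2, 651-2 and 047-1 are hKO, and 695, 046-1, 651-3 and 047-2 are WT.

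Cytosolic ribosomes translate nuclear-encoded messenger RNA and are needed by every cell, so their protein genes are transcribed at high level in all tissues. Mitochondrial ribosomes translate the few messages of the mitochondrial genome, which encode subunits of the respiratory chain, and their proteins are made in the cytosol and imported. In neurons Dnmt3a deposits mCA after birth across gene bodies and the regions between genes, at levels that tend to be low in highly transcribed genes, whereas most CG sites in the genome are methylated in all cell types and CG-rich promoters are mostly not.

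The 109 genes did not give 109 separate measurements. In 4 pairs of cytosolic genes both rows held the same 16 values, 8 for mCA and 8 for mCG: Rpl39 and Rpl39l, Rpl13 and Rpl13a, Rps15 and Rps15a, and Rps27 and Rps27l. In all, 82 pairs of rows in the table were equal in this way, and in 79 of them the longer symbol began with the shorter one. These included pairs of a ligand and its receptor, such as Il9 and Il9r or Csf3 and Csf3r. Of the 79 pairs, 63 had both symbols in RefSeq, and 52 of those lay on different chromosomes. The promoter sequences of the ribosomal pairs are shown because the names of each pair belong to separate loci. Their equal values are therefore not read as separate measurements of both. The promoter windows were not set against the measured gene rows by position. Each run covers 50 bases before to 50 bases after the start of the gene (RefSeq, GRCm38.p6), with CG dinucleotides in capitals:
Rpl39: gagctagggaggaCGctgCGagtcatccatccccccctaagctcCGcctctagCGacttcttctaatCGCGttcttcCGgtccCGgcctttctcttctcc
Rpl39l: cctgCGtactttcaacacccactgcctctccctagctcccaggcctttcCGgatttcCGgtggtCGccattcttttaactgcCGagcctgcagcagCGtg
Rpl13: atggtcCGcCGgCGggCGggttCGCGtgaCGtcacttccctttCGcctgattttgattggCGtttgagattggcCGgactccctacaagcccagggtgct
Rpl13a: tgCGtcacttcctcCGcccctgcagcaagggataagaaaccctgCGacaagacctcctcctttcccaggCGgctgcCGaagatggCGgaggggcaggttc
Rps15: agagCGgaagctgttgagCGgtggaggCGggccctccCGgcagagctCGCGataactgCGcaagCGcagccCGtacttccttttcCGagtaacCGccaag
Rps15a: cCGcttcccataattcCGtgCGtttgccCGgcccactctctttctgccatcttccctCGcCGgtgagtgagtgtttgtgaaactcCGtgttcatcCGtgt
Rps27: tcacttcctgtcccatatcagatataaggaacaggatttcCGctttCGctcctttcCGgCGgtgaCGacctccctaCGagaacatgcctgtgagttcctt
Rps27l: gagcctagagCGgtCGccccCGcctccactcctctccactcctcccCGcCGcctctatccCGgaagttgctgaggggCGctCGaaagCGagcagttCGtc
Rpl39 (chrX:37085173-37085272, minus strand) and Rpl39l (chr16:10170178-10170277, plus strand) had the same base at 26 of 100 positions, and their longest shared run was 8 bases. Rpl13 (chr8:123102300-123102399, plus strand) and Rpl13a (chr7:45128696-45128795, minus strand) had the same base at 19 of 100 positions. For Rps15 (chr10:80292381-80292480, plus strand) and Rps15a (chr7:118116098-118116197, minus strand) the count was 29, and for Rps27 (chr3:90213599-90213698, minus strand) and Rps27l (chr9:66946036-66946135, plus strand) it was 25. The table does not tell which locus of a pair was measured. The main count of mCA calls is therefore given below over all 45 cytosolic genes and again over 41 with each pair counted once. Other counts and medians of cytosolic genes keep both rows of a pair.

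RefSeq promoter windows of 300 bases (250 before and 50 after the start) were at hand for 37 of the 45 cytosolic and 57 of the 64 mitochondrial genes. Counted on both strands, CG cytosines had a median of 13.3 per 100 bases in the windows of cytosolic genes, 14.0 in those of mitochondrial genes and 4.67 over all 27025 genes with a window. All windows of both classes held a CG, against 94.2% of all windows. Across the gene rows, site density as read from the authors' deposited pooled columns was lower, with medians of 2.36 CG sites per 100 bases for cytosolic genes, 2.30 for mitochondrial genes and 2.04 for all genes. CA cytosines had medians of 11.0, 12.3 and 13.7 per 100 bases in the cytosolic, mitochondrial and all windows, and of 15.8, 15.5 and 15.3 in the gene rows. The windows of Rpl11 (chr4:136053344-136053643, minus strand) and Mrpl23 (chr7:142532782-142533081, plus strand), a cytosolic and a mitochondrial gene whose mCA is described below, held 10 and 18 CG dinucleotides, in capitals:
Rpl11: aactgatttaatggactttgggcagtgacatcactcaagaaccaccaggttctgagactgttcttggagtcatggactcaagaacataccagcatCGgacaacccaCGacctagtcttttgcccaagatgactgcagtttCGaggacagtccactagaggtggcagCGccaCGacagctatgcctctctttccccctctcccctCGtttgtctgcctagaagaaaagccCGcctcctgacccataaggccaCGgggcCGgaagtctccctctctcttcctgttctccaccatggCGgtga
Mrpl23: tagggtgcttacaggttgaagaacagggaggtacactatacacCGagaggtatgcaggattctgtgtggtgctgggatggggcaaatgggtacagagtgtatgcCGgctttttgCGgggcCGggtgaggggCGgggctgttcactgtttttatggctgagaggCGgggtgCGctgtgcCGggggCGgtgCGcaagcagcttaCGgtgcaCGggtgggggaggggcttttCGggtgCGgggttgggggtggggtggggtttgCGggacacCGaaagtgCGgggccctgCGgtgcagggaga

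Averaged over all 21056 genes, mCA was 1.25% ± 0.128 in hKO and 2.22% ± 0.262 in WT cortex (SD, n = 4 each; exact two-sided permutation p = 0.0286, the smallest that 4 against 4 animals allow), and mCG was 73.9% ± 1.79 and 76.2% ± 2.14 (exact p = 0.171). These tests took no account of the number prefixes shared by 3 hKO and 3 WT animals. Within each such prefix the mCG mean was lower in hKO than in WT: 71.9 and 74.0% (046), 74.1 and 76.7% (047), and 76.2 and 78.9% (651). In both contexts WT animal 651-3 and hKO animal 651-2 had the highest gene median of their genotype. The gene body of Dnmt3a itself had 0.761% ± 0.0982 mCA in hKO and 1.25% ± 0.212 in WT (SD, n = 4 each), which does not check the deletion. No table used here gives the number of cytosines read per gene, so the spread between animals is the measure of precision. Methylation is not expression, so the labelled tissue could not be checked through its marker genes.

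Ribosomal protein genes of both kinds carried little mCA. Cytosolic genes had a median of 0.4997% in hKO and 0.689% in WT, and mitochondrial genes 0.591% in hKO and 0.896% in WT, whereas the median of all genes was 1.15% in hKO and 2.08% in WT. The median of the cytosolic genes in WT lay above that of 9.91% of all genes, and the median of the mitochondrial genes above that of 17.1%. Only 2 of the 45 cytosolic genes exceeded the WT median of all genes, the pair Rpl39 and Rpl39l that shares its values, against 10 of the 64 mitochondrial genes: Mrpl1, Mrpl13, Mrpl23, Mrpl33, Mrps6, Mrps9, Mrps11, Mrps27, Mrps28 and Mrps35. The order of the classes was the same in each animal. The cytosolic median mCA was 0.405, 0.375, 0.654 and 0.534% in hKO animals 046-2, 047-1, 651-2 and 694, and 0.596, 0.544, 0.872 and 0.662% in WT animals 046-1, 047-2, 651-3 and 695. The mitochondrial median was 0.533, 0.538, 0.728 and 0.601% in these hKO animals, and 0.814, 0.827, 1.25 and 0.850% in these WT animals. The hKO and WT ranges overlapped for the cytosolic median and did not overlap for the mitochondrial one. Relative to the median of all genes in the same animal, the cytosolic median stood at 36.8 to 49.3% in hKO and 28.2 to 35.8% in WT, and the mitochondrial median at 48.4 to 54.8% in hKO and 42.2 to 51.3% in WT. Unconverted cytosines may be part of each value. In shallow cortex libraries of the same age, CC sites were called methylated at 0.267% ± 0.0599 in 7 hKO and 0.360% ± 0.0605 in 11 WT animals (SD). The unmethylated lambda spike-in of these libraries, where it was above 0, gave 0.439% ± 0.0456 in 7 hKO and 0.523% ± 0.105 in 11 WT animals (SD), above CC in every animal. How much of the CC level is failed conversion and how much is methylation was not tested.

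**Figure D1:**
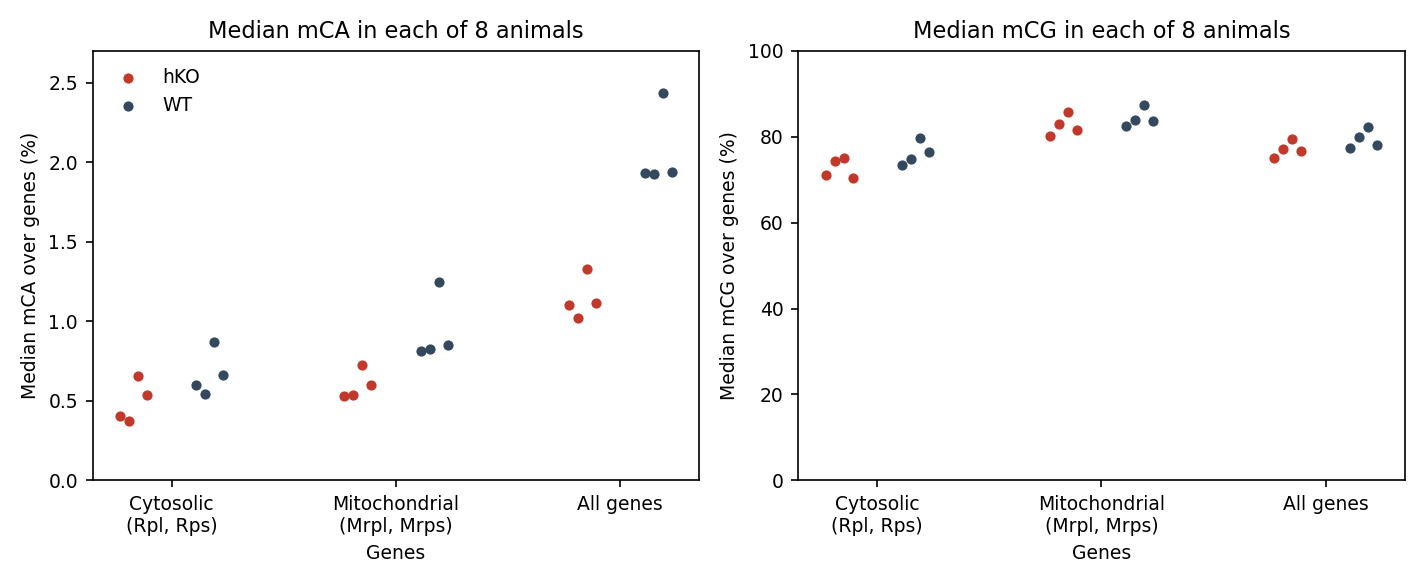
Median mCA (left) and mCG (right) in percent over 45 cytosolic, 64 mitochondrial and all 21056 genes, with 1 point per animal, 4 hKO beside 4 WT. In mCA every animal has the order cytosolic, mitochondrial, all genes from low to high; in mCG the mitochondrial genes are highest and the cytosolic genes lowest in every animal.

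**Figure D2:**
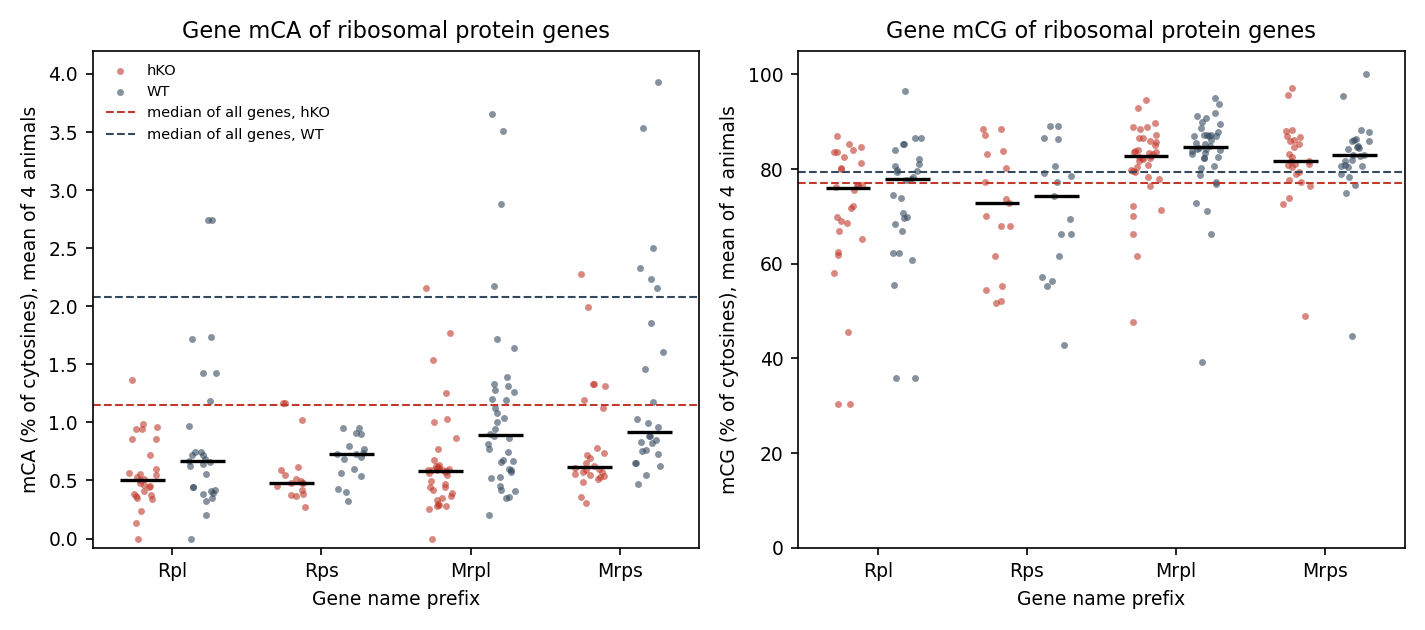
Mean mCA (left) and mCG (right) of each gene over the 4 hKO and the 4 WT animals, by gene name prefix; black bars are medians of the prefix and dashed lines the medians of all genes. Most points in the left panel lie below the line of their genotype, and the low mCG values in the right panel are mostly Rpl and Rps genes.

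The question put to each gene was whether its methylation differed between hKO and WT cortex. With limma fitted over all 21056 genes and Benjamini-Hochberg adjustment, mCA fell in 9 of 45 cytosolic genes (20.0%), or 7 of 41 with each pair counted once, and in 25 of 64 mitochondrial genes (39.1%), against 73.4% of all genes. By prefix the fall was called in 8 of 28 Rpl, 1 of 17 Rps, 16 of 38 Mrpl and 9 of 26 Mrps genes. No ribosomal protein gene rose, and over all genes 0.0285% did. The hKO mean was the lower one in 30 of 45 cytosolic and 61 of 64 mitochondrial genes, against 97.6% of all genes. The highest hKO animal was lower than the lowest WT animal in 4 cytosolic and 24 mitochondrial genes, against 65.3% over the table. The median difference was -0.20 percentage points in cytosolic and -0.357 in mitochondrial genes, and -0.911 in all genes. These medians rest partly on single animals: without WT animal 651-3 they were -0.0856 in cytosolic and -0.233 in mitochondrial genes, and without hKO animal 694 the cytosolic one was -0.124. As a share of the WT level, hKO cortex had a median of 70.7% in cytosolic genes, 60.2% in mitochondrial genes and 56.6% in all genes, and after subtraction of the CC level, whose mean was lower in hKO, 64.8%, 54.3% and 52.7%. The higher lambda level was not subtracted, and shares after it were not computed. Its means were 0.439% in hKO and 0.523% in WT, beside cytosolic medians of 0.4997 and 0.689%. In males alone the fall was called in 7 cytosolic and 21 mitochondrial genes, beside 13643 of all 21056 genes. In females alone it was called in 5 and 13, beside 10180 of all genes.

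The calls depend on the scale and, for the cytosolic genes, on 1 library. Without hKO animal 047-1 the fall was called in 13771 of all genes. Among these were 4 cytosolic genes, Rpl11, Rpl35a, Rpl39 and Rpl39l, which were also called when any other animal was left out. Of the 25 mitochondrial genes, 16 were called in all 8 fits that each left out 1 animal. Once each library's median over all genes was subtracted, 29 of 45 cytosolic and 39 of 64 mitochondrial genes were called higher in hKO and 0 and 3 lower, beside 6550 higher and 5241 lower among all genes. The subtraction adds the same number of points to every gene's difference, as in Rpl38, where 0.0003 became 0.917. The WT medians of the classes were 0.689 and 0.896%, so genes of low mCA come out higher through their level. These counts are tied to level and were not read as a result about the members. Once each library was divided by its mean, no gene of the table was called in either direction.

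**Figure D3:**
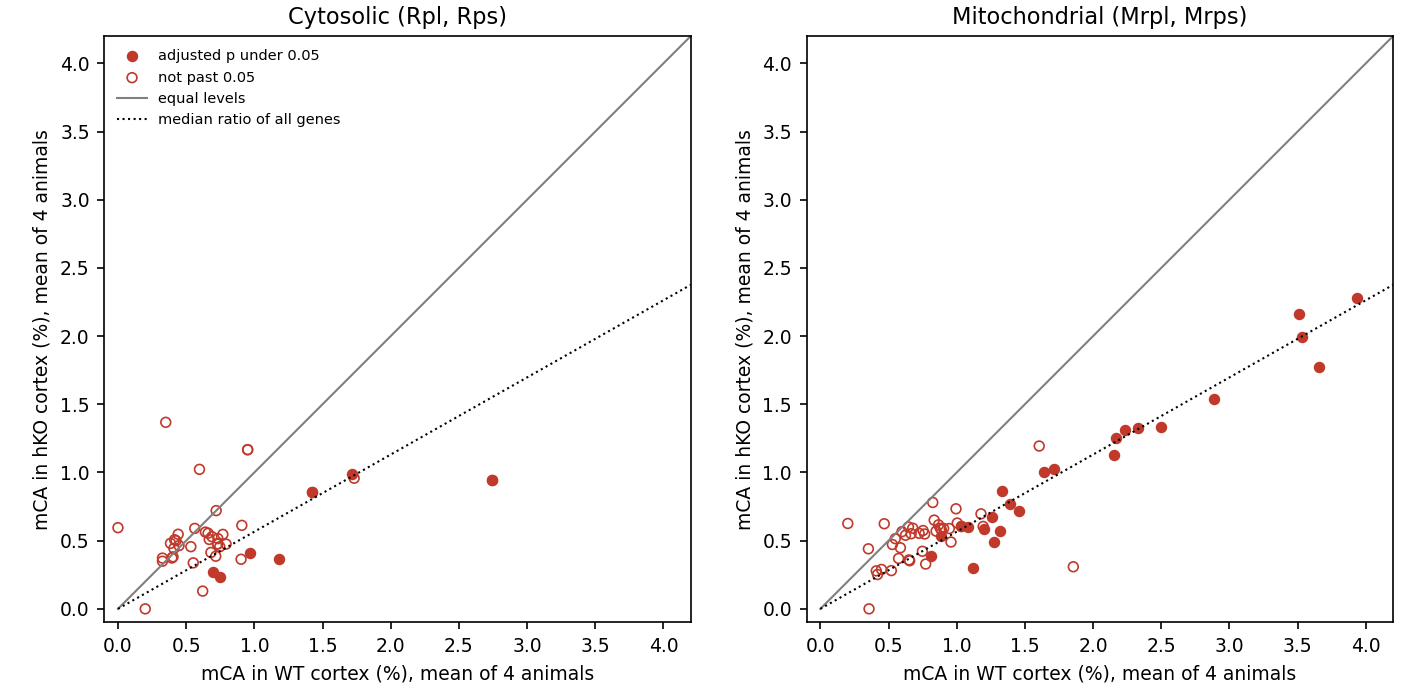
Mean mCA in hKO cortex (y axis, %) against mean mCA in WT cortex (x axis, %), 1 point per gene, for cytosolic (left) and mitochondrial genes (right); filled points passed an adjusted p of 0.05 in limma. The grey line marks equal levels and the dotted line the median ratio of all genes, 56.6%; the filled mitochondrial points follow the dotted line up to 2.28% in hKO and 3.93% in WT for Mrps28.

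Large-subunit genes of the cytosolic ribosome held the largest cytosolic falls. Rpl39, a small protein that lines the exit tunnel, and its paralog Rpl39l, which is known for its expression in testis, shared the values 1.19, 0.443, 1.44 and 0.709% in hKO animals 046-2, 047-1, 651-2 and 694 and 2.62, 3.9, 3.33 and 1.12% in WT animals 046-1, 047-2, 651-3 and 695. The fall of 1.80 points (a difference of -1.80, SE 0.507, limma adjusted p = 0.00879) was the largest among cytosolic genes, although WT animal 695 lay below the highest hKO animals. It was called in females alone (-2.67 points, limma adjusted p = 1.33e-06) but not in males alone (-0.923 points, limma adjusted p = 0.239). Rpl35a, mutated in some human patients with Diamond-Blackfan anaemia, had 0.369, 0, 0.494 and 0.610% in hKO and 1.36, 0.641, 1.51 and 1.22% in WT, in the same order of animals. The groups did not overlap, and the difference was -0.81 points (SE 0.207; limma adjusted p = 0.00503). Rpl11, which with Rpl5 and 5S ribosomal RNA binds the p53 regulator Mdm2, had 0.867, 0.780, 1.12 and 1.17% in hKO and 1.38, 1.58, 2.28 and 1.63% in WT. Its groups did not overlap either (-0.73, SE 0.207, limma adjusted p = 0.00897). The fall of Rpl11 was called in neither sex alone (limma adjusted p = 0.0695 in males and 0.0554 in females). Rpl5, its partner in that complex, averaged 0.443% ± 0.172 in hKO and 0.410% ± 0.311 in WT (SD, n = 4 each) and was not called (limma adjusted p = 0.859).

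Among the other called Rpl genes, Rpl13 and Rpl13a shared a mean of 0.858% ± 0.288 in hKO and 1.43% ± 0.258 in WT (limma adjusted p = 0.0199). Rpl26 averaged 0.412% ± 0.0802 in hKO and 0.967% ± 0.421 in WT (limma adjusted p = 0.0245), and Rpl31 0.236% ± 0.288 in hKO and 0.746% ± 0.319 in WT (limma adjusted p = 0.0334; SD, n = 4 each). With 1 animal left out, Rpl13 and Rpl13a kept the call in 7 of 8 fits, Rpl26 in 6 and Rpl31 in 4. Rpl3l, the muscle paralog of the core protein Rpl3, had a higher level than most cytosolic genes, at 0.958% ± 0.171 in hKO and 1.73% ± 0.810 in WT, and missed the threshold (limma adjusted p = 0.0585). Its fall was called without WT animal 695 (limma adjusted p = 0.00734), without WT animal 046-1 (0.0393), with sex as a covariate (0.0242) and in females alone (0.00691), but not in males alone (0.521). Rpl3 itself averaged 0.530% ± 0.197 in hKO and 0.689% ± 0.330 in WT (limma adjusted p = 0.427). Rpl22, whose loss in mice impairs T-cell development, averaged 0.509% ± 0.257 in hKO and 0.669% ± 0.267 in WT (limma adjusted p = 0.414). Rpl38, whose mutation in mice gives the Tail-short skeletal phenotype, averaged 0.721% ± 0.0778 in hKO and 0.720% ± 0.272 in WT (limma adjusted p = 0.999). Rpl15 averaged 0.349% ± 0.326 in hKO and 0.326% ± 0.380 in WT.

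Genes listed at 0 in several animals gave unstable values. Rpl32 had 0, 3.57, 1.56 and 0.337% in hKO animals 046-2, 047-1, 651-2 and 694 and 0, 0, 1.40 and 0% in WT animals 046-1, 047-2, 651-3 and 695, the largest positive difference of the list (1.02 points, SE 0.676; limma adjusted p = 0.190). Rpl14 was listed at 0 in all 4 WT animals and in 3 hKO animals, with 2.38% in hKO animal 651-2. Rpl27 was listed at 0 in all 4 hKO animals and in 3 WT animals, with 0.8% in WT animal 046-1. In the 2 females of each genotype alone, Rpl32, Rpl14 and the small-subunit gene Rps14 were called higher in hKO (limma adjusted p = 0.000623, 0.00379 and 0.0453). In that fit of 2 against 2 animals 59 of all genes were called higher. Of the females only hKO animal 651-2 had a value above 0 in Rpl14. Rps14 had 3.27 and 0.535% in hKO animals 047-1 and 651-2, and 0.893 and 0.880% in the WT females. A value of 0 in at least 1 animal occurred in 23 of 45 cytosolic and 13 of 64 mitochondrial genes, and in 6.36% of all genes. The coefficient of variation between WT animals had a median of 47.3% in cytosolic, 31.6% in mitochondrial and 18.4% in all genes.

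Small-subunit genes of the cytosolic ribosome showed 1 called fall. Rps3a had 0.338, 0, 0.287 and 0.449% in hKO animals 046-2, 047-1, 651-2 and 694 and 0.706, 0.544, 0.564 and 0.982% in WT animals 046-1, 047-2, 651-3 and 695. The groups did not overlap (-0.43, SE 0.146; limma adjusted p = 0.0214), but the call was lost without hKO animal 047-1 (0.0722) and without WT animal 695 (0.0608). Rps28 had a larger difference of -0.54 points (SE 0.236) and missed the threshold (limma adjusted p = 0.0588), with 0 to 0.767% in hKO and 0.367 to 1.29% in WT. It was called without hKO animal 694 (limma adjusted p = 0.0314), WT animal 047-2 (0.0435) or WT animal 695 (0.0145). Rps19, Rps24 and Rps10, each mutated in some human patients with Diamond-Blackfan anaemia, had means of 0.456, 0.414 and 0.475% in hKO and 0.535, 0.682 and 0.793% in WT, and none was called (limma adjusted p = 0.663, 0.112 and 0.202). Without WT animal 047-2, Rps10 was called lower (limma adjusted p = 0.0372), and in males alone Rps19 was (0.0499). Rps14, lost in the human 5q deletion syndrome, had 3.27% in hKO animal 047-1 and 0 to 0.535% in the other hKO animals, against 0 to 0.893% in WT animals. Rps4x, encoded on the X chromosome, averaged 0.590% ± 0.163 in hKO and 0.563% ± 0.215 in WT (SD, n = 4 each). Rps27 and Rps27l, a zinc-finger protein and its p53-inducible paralog, shared the highest WT level of the Rps genes, with 1.17% ± 0.863 in hKO and 0.951% ± 1.12 in WT (SD, n = 4 each). Rps2 averaged 0.515% ± 0.240 in hKO and 0.733% ± 0.931 in WT. None of Rps4x, Rps27, Rps27l and Rps2 was called (limma adjusted p from 0.607 for Rps2 to 0.869 for Rps4x).

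Large-subunit genes of the mitochondrial ribosome included the largest fall of all. Mrpl23, which lies next to the imprinted H19 gene in mouse, had 1.74, 0.958, 2.22 and 2.18% in hKO animals 046-2, 047-1, 651-2 and 694 and 3.47, 4.11, 4.57 and 2.47% in WT animals 046-1, 047-2, 651-3 and 695. The groups did not overlap, and the difference of -1.88 points (SE 0.448, limma adjusted p = 0.00357) left 48.5% of the WT level. The fall was called in females alone (-2.75 points, limma adjusted p = 3.36e-06) but not in males alone (-1.01 points, limma adjusted p = 0.109). Mrpl13 had 2.29, 1.87, 2.43 and 2.06% in hKO and 3.00, 3.12, 4.29 and 3.62% in WT (-1.35, SE 0.307; limma adjusted p = 0.00274). Mrpl33 had 1.47, 1.6, 1.66 and 1.43% in hKO and 2.73, 2.79, 3.39 and 2.62% in WT (-1.34, SE 0.210; limma adjusted p = 0.000543). In both genes every hKO animal lay below every WT animal. Mrpl12, a stalk protein that also binds the mitochondrial RNA polymerase, had 0.208, 0.727, 0.250 and 0% in hKO and 0.819, 0.413, 1.39 and 1.86% in WT. Its groups overlapped, and the fall (-0.82, SE 0.288; limma adjusted p = 0.0242) was called in 4 of the 8 fits that each left out 1 animal; without hKO animals 046-2 or 694 or WT animals 651-3 or 695 the adjusted p ran from 0.0530 to 0.0867. Mrpl10, which anchors the stalk, had a steadier fall, with 0.493% ± 0.156 in hKO and 1.28% ± 0.261 in WT (limma adjusted p = 0.00156). Mrpl3, mutated in a human mitochondrial cardiomyopathy, averaged 0.863% ± 0.190 in hKO and 1.33% ± 0.216 in WT (limma adjusted p = 0.0228); without hKO animal 046-2 or 047-1 it missed the threshold (0.0709 and 0.0727). Mrpl44, linked to a similar human disease, averaged 0.281% ± 0.218 in hKO and 0.521% ± 0.319 in WT and was not called (limma adjusted p = 0.233; SD, n = 4 each).

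At the other end, Mrpl24 had the lowest WT level of the Mrpl genes, 0.626% ± 0.623 in hKO and 0.201% ± 0.235 in WT (limma adjusted p = 0.174). It was called higher in hKO without hKO animal 047-1 (limma adjusted p = 0.0442). Mrpl2 averaged 0.440% ± 0.290 in hKO and 0.352% ± 0.427 in WT. Mrpl28 was listed at 0 in all 4 hKO animals and in 3 WT animals, with 1.43% in WT animal 651-3. Mrpl2, Mrpl24 and the small-subunit gene Mrps18b were the 3 mitochondrial genes with a higher mean in hKO, and none of them was called with all 8 animals.

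Small-subunit genes of the mitochondrial ribosome included the highest mCA level among the 109 genes. Mrps28 had 2.22, 2.10, 2.46 and 2.35% in hKO animals 046-2, 047-1, 651-2 and 694 and 3.79, 3.71, 4.6 and 3.63% in WT animals 046-1, 047-2, 651-3 and 695 (-1.65, SE 0.272; limma adjusted p = 0.000597). Mrps27, a protein of the pentatricopeptide-repeat type, had 1.83, 1.99, 2.14 and 2.00% in hKO and 3.52, 3.39, 3.95 and 3.27% in WT (-1.54, SE 0.221; limma adjusted p = 0.000543). Mrps6 had 1.12, 1.44, 1.47 and 1.30% in hKO and 2.43, 2.28, 2.94 and 2.36% in WT (-1.17, SE 0.195; limma adjusted p = 0.000623). In these 3 genes the groups stood clearly apart, with WT animal 651-3 the highest each time. Mrps9, Mrps11 and Mrps35 fell by 1.01, 1.03 and 0.92 points, with hKO levels of 1.125 to 1.33% and WT levels of 2.16 to 2.33%. Mrps2 had a larger difference than most, but its values were 1.24, 0, 0 and 0% in hKO and 1.47, 0, 2.17 and 3.77% in WT, and it missed the threshold (-1.55, SE 0.649; limma adjusted p = 0.0508). It was called without hKO animal 046-2 (limma adjusted p = 0.0343), without WT animal 047-2 (0.00257), with sex as a covariate (0.0399), with the filter on low values (0.0432) and in females alone (0.00652). Mrps22, mutated in human mitochondrial disease, averaged 0.554% ± 0.216 in hKO and 0.725% ± 0.190 in WT (limma adjusted p = 0.318). Of the Mrps18 paralogs, Mrps18b had the lowest WT level among the Mrps genes, with 0.624% ± 0.188 in hKO and 0.469% ± 0.127 in WT (limma adjusted p = 0.304). Mrps18c averaged 0.651% ± 0.193 in hKO and 0.835% ± 0.303 in WT (limma adjusted p = 0.346; SD, n = 4 each).

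**Figure D4:**
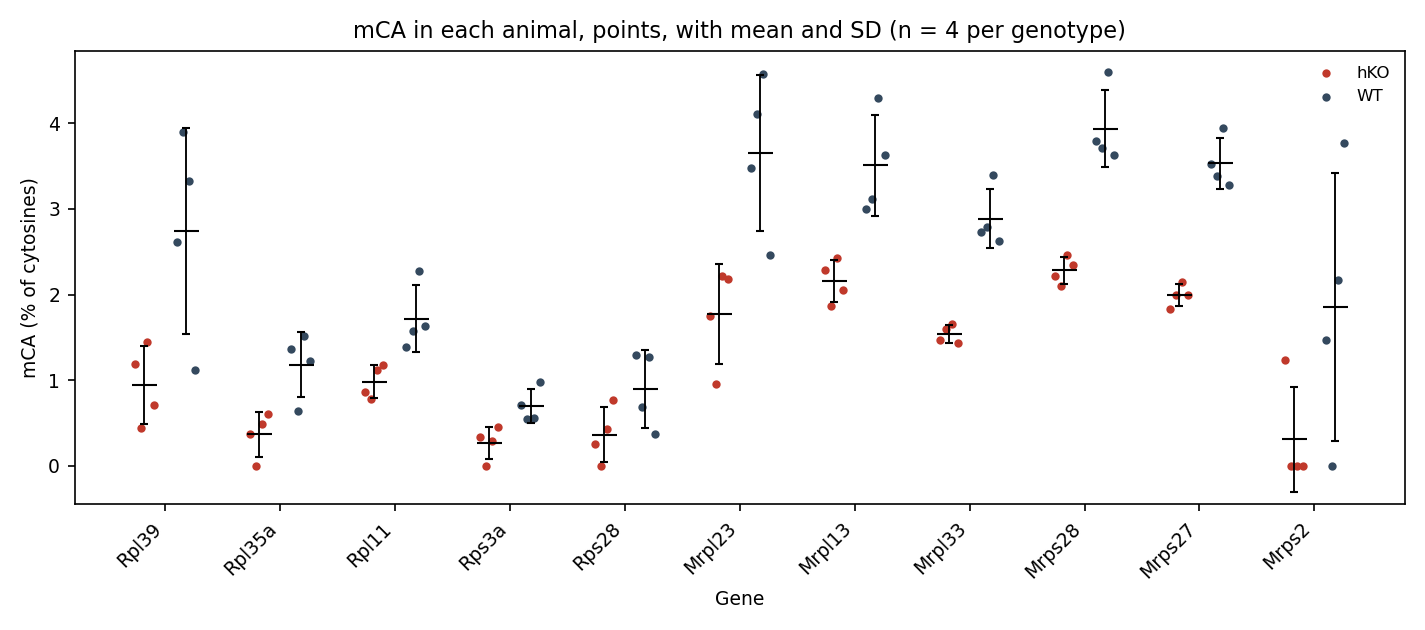
mCA in percent in each animal for 11 genes with the largest falls of their prefix or a role in the text; points are animals, 4 hKO left of 4 WT for each gene, with the mean and SD. Points of hKO and WT are apart for Rpl11, Rpl35a, Rps3a and for all mitochondrial genes shown but Mrps2, in which 3 hKO animals and 1 WT animal are at 0.

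Calls rose with the level of the gene in mitochondrial genes and in all genes, and in cytosolic genes only from a level of 1% up. Genes were grouped by their mean mCA over the 8 libraries, with limits of 0.5, 1 and 2% chosen after the values had been seen. Below 0.5% lay 17 cytosolic, 8 mitochondrial and 1333 of all genes, and the fall was called in 2, 0 and 14 (1.05%) of these. From 0.5 to 1% it was called in 2 of 20 cytosolic genes, in 10 of 39 mitochondrial genes and in 37.5% of all genes. From 1 to 2% it was called in 5 of 8 cytosolic genes, in 10 of 12 mitochondrial genes and in 88.1% of all genes. The 5 called cytosolic genes were Rpl11 and the pairs Rpl13 with Rpl13a and Rpl39 with Rpl39l, which share their values. Rps27 and Rps27l, a pair that also shares its values, were among the 8 without a call. All 5 mitochondrial genes at 2% or more were called, against 93.9% of all genes, and no cytosolic gene reached that level. The median share of the WT level was 98.97% in cytosolic, 64.5% in mitochondrial and 78.5% in all genes below 0.5%. From 0.5 to 1% it was 68.9%, 65.3% and 61.6%, and from 1 to 2% it was 58.8%, 57.3% and 55.9%. The part that the low level and the spread between animals play in the small share of calls was not tested.

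By limma mCG was called in 0 of 109 ribosomal protein genes and in 0 of 21056 genes (0%). At an unadjusted p under 0.05 there were 4 cytosolic genes (Rpl14, Rpl15, Rpl18 and Rpl27a) and 3 mitochondrial genes (Mrpl38, Mrps6 and Mrps33), against 10.4% of all genes, and the smallest limma adjusted p among them was 0.476. The hKO mean was the lower one in 30 of 45 cytosolic and 46 of 64 mitochondrial genes, against 84% of all genes, with median differences of -1.79, -1.55 and -2.18 points. Single animals moved these medians: without WT animal 651-3 they were -0.696 in cytosolic and -0.474 in mitochondrial genes, without WT animal 046-1 the cytosolic one was -2.73, and without hKO animal 046-2 the mitochondrial one was -0.881. In no ribosomal protein gene did the 4 hKO and 4 WT animals stand fully apart, whereas 4.94% of all genes had the hKO animals entirely below, and 0.057% entirely above, the WT animals.

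The classes stood on opposite sides of all genes in mCG. The median was 73.8% in hKO and 77.3% in WT for cytosolic genes, 82.4% in hKO and 84.2% in WT for mitochondrial genes, and 77.1% in hKO and 79.4% in WT for all genes. Of the cytosolic genes 17 of 45, and of the mitochondrial genes 52 of 64, exceeded the WT median of all genes. The cytosolic median lay below the mitochondrial one in every animal, with differences of -11.2 to -8.53 points in hKO and -9.07 to -7.22 points in WT. CG density in the gene rows was close in both classes (medians of 2.36 and 2.30 sites per 100 bases). WT means under 60% occurred in 7 cytosolic genes (15.6%), in 2 mitochondrial genes (3.13%) and in 7.65% of all genes. The lowest was the shared value of Rpl13 and Rpl13a, 30.3% ± 5.97 in hKO and 35.8% ± 3.63 in WT (SD, n = 4 each), in a row with 5.01 CG sites per 100 bases. Mrpl2 followed with 47.8% ± 16.9 in hKO and 39.3% ± 8.18 in WT, and Rps2 with 51.7% ± 4.59 in hKO and 42.8% ± 14.7 in WT. Mrps24, Rps24, Rpl18, Rps19 and Rps10 completed the set. WT means above 90% occurred in 8 mitochondrial genes (12.5%), in 1 cytosolic gene, Rpl27a, and in 2.54% of all genes. Mrps2 was at 100% in all 4 WT animals and in 3 hKO animals.

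The largest mCG differences came with wide spread between animals. Mrpl28 had 100, 25.0, 83.3 and 57.1% in hKO animals 046-2, 047-1, 651-2 and 694 and 100, 100, 80.0 and 100% in WT animals 046-1, 047-2, 651-3 and 695. Rpl14 had 85.7, 100, 91.7 and 61.5% in hKO and 78.6, 33.3, 58.3 and 72.7% in WT. Rpl15 had 63.3, 66.7, 56.5 and 63.4% in hKO and 84.6, 83.3, 88.9 and 55% in WT. Each of these had a limma adjusted p of 0.476, and Mrpl28 and Rpl14 were also at 0 mCA in a whole group. Genes whose mCA fell also with any 1 animal left out were not called in mCG: Mrps28 had 81.7% ± 1.89 in hKO and 84.2% ± 1.61 in WT, and Mrpl33 had 70.2% ± 2.68 in hKO and 72.7% ± 3.88 in WT. Rps27 and Rps27l had 88.4% ± 6.55 in hKO and 89.2% ± 17.98 in WT (SD, n = 4 each).

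Not every ribosomal protein gene could be described. Of 76 cytosolic rows 45 had all values (59.2%), and of 76 mitochondrial rows 64 had them (84.2%), against 61.6% of all gene rows. Of the 43 rows without all values, 41 had none at all, among them Rps6, the target of the S6 kinases, Rps26, Rpl10, Mrps12, Mrps16 and Mrps34. Rpl30 lacked mCG values, with mCA of 0% in 6 animals, 1.83% in hKO animal 046-2 and 1.30% in WT animal 695. Rpl9 lacked the mCG value of hKO animal 047-1 only.

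Genes that work with ribosomes but bear other names were read from the same fit, in which mCA fell in 73.4% of all genes. Of ribosomal protein genes outside the naming rule, 1 of 5 measured fell in mCA: Rplp2, a stalk protein, averaged 0.0904% ± 0.181 in hKO and 0.834% ± 0.442 in WT (SD, n = 4 each; limma adjusted p = 0.00822). Of other mitochondrial ribosome genes 1 of 6 fell, Dap3, a small-subunit GTPase, with 0.662% ± 0.175 in hKO and 1.16% ± 0.237 in WT (limma adjusted p = 0.0167). Falls were called in 17 of 46 ribosome biogenesis genes, such as the pre-ribosomal factor Bop1 (1.24% ± 0.154 in hKO and 2.26% ± 0.186 in WT), and in 15 of 44 cytosolic translation factors, such as the initiation factor subunit Eif3h (2.09% ± 0.232 in hKO and 3.70% ± 0.427 in WT). They were called in 13 of 18 mitochondrial translation factors, a share close to that of all genes, such as the recycling factor Mrrf (1.48% ± 0.117 in hKO and 2.72% ± 0.412 in WT), and in 9 of 10 S6 kinases, such as Rps6ka1 (2.06% ± 0.142 in hKO and 3.48% ± 0.370 in WT; SD, n = 4 each). The genes named here were picked from the largest falls in points of each list and do not stand for its typical level. The lists differed in level as well. The median was 0.674% in hKO and 1.22% in WT for mitochondrial translation factors, and 1.34% in hKO and 2.32% in WT for S6 kinases. It was 0.505% in hKO and 0.796% in WT for cytosolic translation factors, and 0.556% in hKO and 0.856% in WT for ribosome biogenesis genes. No gene of these lists was called higher, and none was called in mCG.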

How the data were processed

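Whole-genome bisulfite libraries were deposited as processed tables, built on mm9 with BS-Seeker2 and bedtools per the submitters' processing notes. Tool versions and the bounds of each gene are not given in the sources used here. In these tables the deposited value of a gene is the fraction of CA or CG cytosines called methylated in 1 library, multiplied here by 100. The authors' pooled columns per genotype, deposited with no stated unit, equal the group mean multiplied by a factor per gene that both genotypes share, read here as CA or CG sites per base; 4 columns of the authors' averages were not used. The deposited table gives no counts or coverage, so no counting interval, minimum or weight was applied.

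Groups came from the labels. Genes with values in all 8 libraries in both contexts entered limma 3.58.1 under R 4.3.3, fitted to the fraction itself (eBayes with a trend, two-sided, Benjamini-Hochberg adjustment, threshold 0.05). limma was also tested on simulated data in which only genes above the median level were changed, so that test does not cover genes of low mCA. Permutation tests, medians and counts came from Python 3.11.15, using scipy 1.17.1, pandas 2.3.3 and numpy 2.4.6. Members, lists and naming rules were chosen with earlier results of these data known: named by rule were, per prefix, the largest falls and rises, the highest and lowest WT levels, genes at 0 in a group, and genes with known roles. Other genes named were chosen after their values were seen, and 1 gene that the rule names is not reported here. Replicates are separate animals. Promoter sequences are RefSeq's on GRCm38.p6; the files' build is mm9, so no gene coordinates of the table are given. Motifs searched were CG and CA (or TG, for the other strand).

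Alternatives were a logit scale (offsets 0.001 and 0.01), library medians subtracted, division by library means, sex as covariate, a replicate block, no variance trend, a filter on low values (0.5% mCA, 10% mCG), each sex alone, each animal left out, and 3 added after seeing the data: copied rows removed, the CC level subtracted, and every gene with 8 mCA values. In the labels' protocols the females' text names a further instrument, so instrument and sex cannot be told apart; both genotypes have 2 of each sex.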

Additional observations from a re-analysis of the deposited data

Results flagged for a closer look

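For each sample the gap to the nearest of the other 3 animals of its genotype was divided by the range of the 4. A sample was singled out where this ratio exceeded Dixon's 95% critical value for 4 samples. This held in 20 of 172 groups of 4 examined. Chance alone singles out about 1 in 20 groups of independent, normally spread values, but the values of genes in 1 library are not independent. Where the other 3 animals share a value, as at 0 in Rpl14, the ratio is always 1, so that rate does not apply. WT animal 651-3 stood alone most often: its median mCA was 2.43% over all genes and 1.25% over the mitochondrial genes, and it was highest in mCA of Mrps28 (4.6%), Mrpl28 (1.43%), Rpl32 (1.40%), Rpl22 (1.07%) and Rpl5 (0.872%) and in mCG of Mrps28 (86.6%), while it was the lowest in mCG of Mrpl28 (80.0%). hKO animal 651-2 was highest in mCA of Rpl14 (2.38%) and Rpl3 (0.825%) and lowest in mCG of Mrps2 (88.9%). hKO animal 047-1 was highest in mCA of Rps14 (3.27%) and lowest in that of Rps10 (0.141%), and hKO animal 046-2 was highest in mCA of Mrps2 (1.24%). WT animal 046-1 was highest in mCA of Rpl27 (0.8%) and lowest in mCG of Mrpl33 (66.9%). WT animal 695 was lowest in mCG of Rpl15 (55%), and WT animal 047-2 in that of Rps27 and Rps27l (62.5%, 1 shared value).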

How the results depend on the processing

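The counts of called genes kept within 1.5 times of those reported under the logit scale, sex as covariate, no variance trend and the filter on low values, save where given here. Library medians subtracted gave 0 cytosolic and 3 mitochondrial genes lower, 29 and 39 higher, and 5241 lower and 6550 higher among all genes. Division by library means gave 0 calls throughout: 0 cytosolic, 0 mitochondrial and 0 of all genes lower, and 0 higher. Females alone gave 5 cytosolic, 13 mitochondrial and 10180 of all genes lower in mCA, 59 higher (3 of them cytosolic), and 1 gene in mCG; males alone gave 49 genes higher, 1 of them mitochondrial. With 1 animal left out, 4 to 11 cytosolic and 18 to 29 mitochondrial genes were lower, beside 13771 to 16116 of all genes. In these fits 0 to 1 mitochondrial and 6 to 22 of all genes were higher, and 0 to 1 gene changed in mCG. The labels speak of littermates but do not say what the number prefixes shared by 3 hKO and 3 WT animals mark. Across genes, deviations of same-prefix animals correlated weakly (0.04 to 0.08 in mCA, 0.08 to 0.12 in mCG), and they were not taken as pairs. The library means of mCG nevertheless ranked alike by prefix in both genotypes, with 046 lowest, then 047, and 651 highest. The fit with that replicate block, over these 6 animals and without 694 and 695, gave 10 cytosolic, 30 mitochondrial and 15941 of all genes lower and 16 higher; it called Rps28 (limma adjusted p = 0.00373) and Rpl3l (0.0162) and lost Mrpl12 (0.176). Signs under the next 2 settings are given only for the 40 members named by rule. Of the called genes among them, 4 turned positive after division by library means, on that relative scale: Mrpl13 (0.25), Mrpl3 (0.15), Mrps28 (0.088) and Rpl11 (0.029). After subtraction of library medians 5 did: Mrpl12 (0.093 points), Mrpl3 (0.45), Rpl11 (0.18), Rpl35a (0.10) and Rps3a (0.49). Division takes out a change in proportion to the library mean. Subtraction shifts the difference of every gene by the same number of points, and so raises genes of low mCA through their level. Other called members whose fall was smaller than that shift turn positive too, such as Mrpl10 (-0.783 points before subtraction). Medians of the class differences kept their sign in each sex alone, without each animal, as means and without copied rows. They were not computed under the other settings, which include library medians subtracted and division by library means. Without 1 animal they ranged from -0.226 to -0.0856 (cytosolic mCA), -0.425 to -0.233 (mitochondrial mCA), -2.73 to -0.696 (cytosolic mCG) and -2.07 to -0.474 points (mitochondrial mCG). The cytosolic mCA median was -0.133 in males and -0.0994 in females. Unknown depth and values of 0 limit what can be seen in genes of low mCA.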
